A study of Mus musculus with 34 samples.

Results

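The 40 genes described here encode the machinery of G2 phase and mitosis, and they were listed by symbol from their known function, with earlier results of these data known. They were 40 of the 23109 genes in the RNA-Seq files, and all 40 were above 0 in every one of the 14 libraries. For 8 of the 40 the files list several RefSeq transcripts, and the one with the highest mean level was taken. The study asked how methylation of histone H3 lysine 36, and the methyltransferase Nsd2 that places it, bears on the formation of fat cells. RNA-Seq was performed in 3 experiments on brown preadipocytes immortalized with SV40T, with 1 library per condition, so no difference below has a replicate check. All libraries are labelled as cells of C57BL/6J origin with floxed alleles of the glucocorticoid receptor gene, whereas the methods describe preadipocytes of newborn wild type mice. The labels also speak of a retroviral vector or Cre, the latter deleting that receptor, and do not say which of these, if either, the libraries here received.

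In the first experiment, cells carried retroviral FLAG-tagged histone H3.3, either wild type (WT) or with lysine 36 replaced by methionine (K36M), a mutant that lowers H3K36 methylation, and were taken at D0, D2 and D7 of adipogenesis. D0 cells were confluent, and a cocktail of hormones and drugs was given until D2. In the second, sub-confluent cells with WT or K36M histone also carried retroviral PPARγ, the nuclear receptor that drives fat cell formation, and received DMSO (labelled 0 h) or its ligand rosiglitazone (Rosi, labelled 24 h). The paper describes 24 h of either treatment, whereas a 0 h label could also mean cells taken before treatment. In that case Rosi and 24 h more of culture could not be told apart. In the third, cells received lentivirus with a control shRNA (Ctrl) or with one that targets Nsd2 (Nsd2 KD, which of the study's shRNAs is not given in the labels) and were taken at D0 and D2.

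Cells enter mitosis when the kinase CDK1, bound to cyclin B, is released from inhibition. They leave it when the anaphase-promoting complex (APC/C) has cyclin B and securin destroyed, and the genes for this machinery are switched on together late in the cell cycle by FOXM1, B-MYB and the MuvB complex at CHR elements, often beside CCAAT boxes bound by NF-Y. In most tissues these genes are silent in cells that have left the cycle, so their RNA is widely read as a sign of dividing cells. Preadipocytes in culture stop dividing at confluence, divide again for a short time after the hormone cocktail and then withdraw from the cycle as they fill with fat. SV40 large T antigen binds the Rb family and p53, both of which hold such genes down.

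The mapped reads, recovered from the deposited values, ranged from 12213559 to 24365867 per library, and 3 reads amounted to an RPKM of 0.123 to 0.246 for a transcript of 1 kb. The lowest member value rested on 65 reads. RPKM is the number of reads of a transcript per kilobase of its length and per 1000000 mapped reads of the library, so levels of different genes can be compared. Log2 ratios are ratios of RPKM, and a member was called when the ratio passed 2-fold. The bracketed ranges are 95% Clopper-Pearson intervals of the recovered reads. They describe the counting error between 2 libraries rather than any difference between conditions. Counts of members by these intervals, or by the sign of the ratio, are given without a count over all genes. With many reads an interval leaves 0 at a small ratio, so such counts need not be particular to the members. Shares of all genes count every gene above 0 in either library, including genes with fewer reads than any member. Where both shares are given below, the one for genes with an RPKM of at least 1 is lower. Elsewhere only the share of all genes is given, and members below it need not be steadier than genes of like level. Nsd2, the target of the shRNA, had an RPKM of 19.9 and 29.0 in Ctrl cells at D0 and D2 and of 5.85 and 7.01 in Nsd2 KD cells. The 5 preadipocyte markers were above 0 in every library, with a summed RPKM of 36.4 to 630.1, and of the 9 brown adipocyte markers Ucp1 and Cidea stayed under 1 in every library, so the brown fat identity rests on the labels. Leukocyte, endothelial, muscle and epithelial markers summed to an RPKM of at most 3.11 in any library.

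A promoter window from RefSeq (build GRCm38.p6, 250 bases before to 50 after the start) was found for 33 of the 40 members, and no window was used for Tpx2, Kif20a, Cdc25c, Ccna2, Incenp, Foxm1 and Aurkb. The letters of the CHR element (TTTGAA or TTCGAA) and of the CCAAT box (CCAAT) were searched on both strands, so that TTCAAA and ATTGG also counted, and 1 CHR match overlapped a CCAAT match. A CHR match was present in the windows of 26 of the 33 members (78.8%), against 21.7% of all 27025 genes with a window. A CCAAT match was present in 25 members (75.8%), against 41.1% of all genes, and at least 2 CCAAT matches in 18 (54.5%), against 13.3%. Both kinds of match stood in the same window in 23 members (69.7%), against 8.61% of all genes. TATAAA was found in 1 member, Kif2c (3.03% against 15.7%), and an E2F-like element (TTTGGCGC, TTTCCCGC or TTTCGCGC) in 1 member, Cdk1 (3.03% against 2.12%). With 1 window per member (Ect2 and Prc1 have 2 that overlap, and the one with the lower start coordinate was taken), the 62 CCAAT matches began at a median of -74.5 and the 35 CHR matches at a median of 2, counted with the first transcribed base at 0, and 25 of the CHR matches began within 50 bases of the start. A match describes letters only, not a bound site. The windows of 6 members that the results below turn on are shown, on the strand of the gene, with CHR and CCAAT matches in capitals.
Ccnb1 promoter, chr13:100786437-100786736, minus strand: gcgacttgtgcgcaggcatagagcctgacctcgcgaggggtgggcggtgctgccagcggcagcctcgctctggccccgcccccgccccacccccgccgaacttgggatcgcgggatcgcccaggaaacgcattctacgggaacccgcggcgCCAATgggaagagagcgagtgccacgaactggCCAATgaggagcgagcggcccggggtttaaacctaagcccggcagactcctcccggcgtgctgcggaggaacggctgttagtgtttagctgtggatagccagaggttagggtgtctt
Cdk1 promoter, chr10:69352863-69353162, minus strand: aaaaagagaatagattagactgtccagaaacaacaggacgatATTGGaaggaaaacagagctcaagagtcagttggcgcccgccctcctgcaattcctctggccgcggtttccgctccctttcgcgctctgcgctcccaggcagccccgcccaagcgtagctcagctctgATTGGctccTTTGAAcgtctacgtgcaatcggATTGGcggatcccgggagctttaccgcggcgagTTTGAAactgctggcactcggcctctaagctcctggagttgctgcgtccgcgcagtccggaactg
Cdc20 promoter, chr4:118437294-118437593, minus strand: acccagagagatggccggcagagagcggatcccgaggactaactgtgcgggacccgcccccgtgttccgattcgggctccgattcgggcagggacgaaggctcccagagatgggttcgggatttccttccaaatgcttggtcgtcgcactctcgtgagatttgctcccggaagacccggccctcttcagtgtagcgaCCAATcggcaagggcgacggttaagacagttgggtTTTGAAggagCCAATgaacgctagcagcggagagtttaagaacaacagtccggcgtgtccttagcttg
Plk1 promoter, chr7:122159185-122159484, plus strand: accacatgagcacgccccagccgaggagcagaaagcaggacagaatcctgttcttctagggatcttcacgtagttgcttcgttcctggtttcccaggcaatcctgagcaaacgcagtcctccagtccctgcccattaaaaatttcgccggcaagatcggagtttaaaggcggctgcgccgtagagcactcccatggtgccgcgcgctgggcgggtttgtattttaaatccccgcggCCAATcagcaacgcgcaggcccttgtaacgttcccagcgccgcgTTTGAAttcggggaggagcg
Cenpf promoter, chr1:189688037-189688336, minus strand: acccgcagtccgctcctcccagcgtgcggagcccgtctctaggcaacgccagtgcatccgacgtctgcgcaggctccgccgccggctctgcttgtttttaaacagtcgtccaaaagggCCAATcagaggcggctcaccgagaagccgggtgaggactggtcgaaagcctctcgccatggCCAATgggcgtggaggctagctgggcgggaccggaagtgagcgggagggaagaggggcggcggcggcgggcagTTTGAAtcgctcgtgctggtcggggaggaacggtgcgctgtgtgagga
Top2a promoter, chr11:99024140-99024439, minus strand: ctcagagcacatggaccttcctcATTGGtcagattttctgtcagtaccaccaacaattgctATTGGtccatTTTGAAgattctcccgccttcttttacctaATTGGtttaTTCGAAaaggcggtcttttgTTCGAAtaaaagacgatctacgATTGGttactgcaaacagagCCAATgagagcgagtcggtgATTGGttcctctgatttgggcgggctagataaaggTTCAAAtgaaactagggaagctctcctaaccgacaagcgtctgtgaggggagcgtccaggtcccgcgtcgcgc
Cdc20 and Plk1 held 1 CHR match each beside their CCAAT matches, Top2a held 4 CHR and 6 CCAAT matches, and Ccnb1 held 2 CCAAT matches and no CHR match of these letters. Members without either kind of match were Birc5, Mad2l1, Nuf2, Nusap1 and Pttg1.

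The members together took 1627 to 4008 reads of each 1000000 mapped reads (RPM). In WT cells their summed level was 1685 RPM at D0, 1822 at D2 and 2185 at D7, so it was no lower at the end of adipogenesis than before induction. K36M cells had 2318, 2029 and 3296 RPM at the same days, and each was above the WT library of its day. Of the PPARγ libraries, those given DMSO had 3795 (WT) and 3533 RPM (K36M), and those given Rosi had 2678 and 1930. Ctrl had 4008 RPM before and 2030 after induction, whereas Nsd2 KD had 1627 and 2034. The highest sums thus came from the 2 sub-confluent DMSO libraries and from Ctrl D0, and the lowest came from Nsd2 KD D0. In bulk RNA, fewer cells in G2 or mitosis and less of this RNA per cell cannot be told apart.

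**Figure D1:**
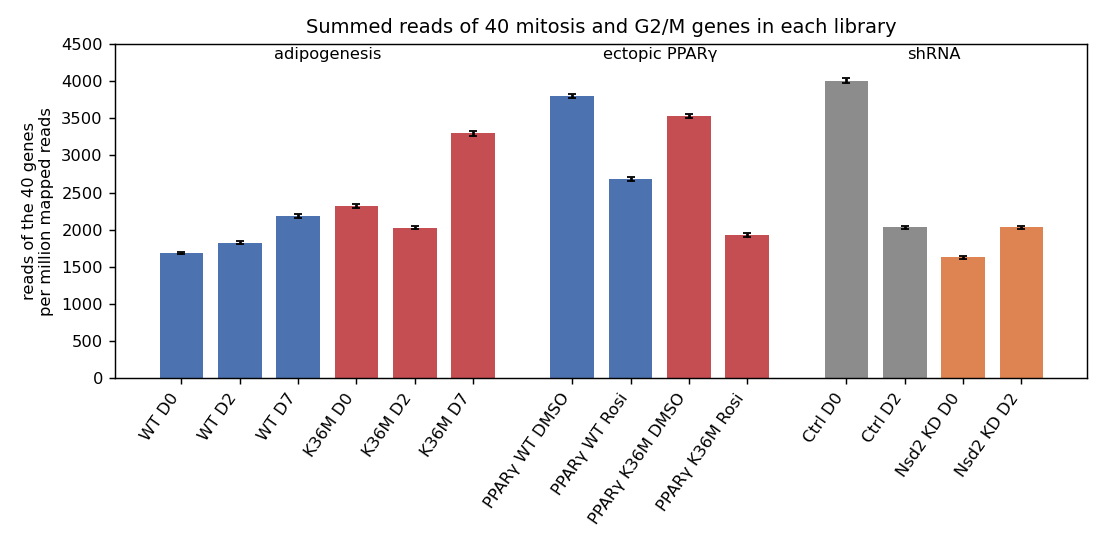
Summed reads of the 40 members in RPM (reads per 1000000 mapped reads) in each of the 14 libraries, grouped by experiment, with 95% intervals for counting error only. The sums run from 1627 in Nsd2 KD D0 to 4008 in Ctrl D0.

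Single members ranged over the 14 libraries by 1.97-fold for Mad2l1 to 8.72-fold for Plk1, with a median of 3.57-fold between the highest and lowest library. The lowest RPKM of any member was 1.92, for Cdc25c in Nsd2 KD D0, and the highest was 76.4, for Top2a in Nsd2 KD D2. PPARγ WT cells with DMSO were the highest library for 19 members and Ctrl D0 for 11, followed by K36M D7, Nsd2 KD D2 and PPARγ K36M cells with DMSO for 3 each and WT D7 for 1. Nsd2 KD cells were the lowest library for 12 members at D0 and for 10 at D2, followed by WT D0 for 7 and WT D2 for 6.

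**Figure D2:**
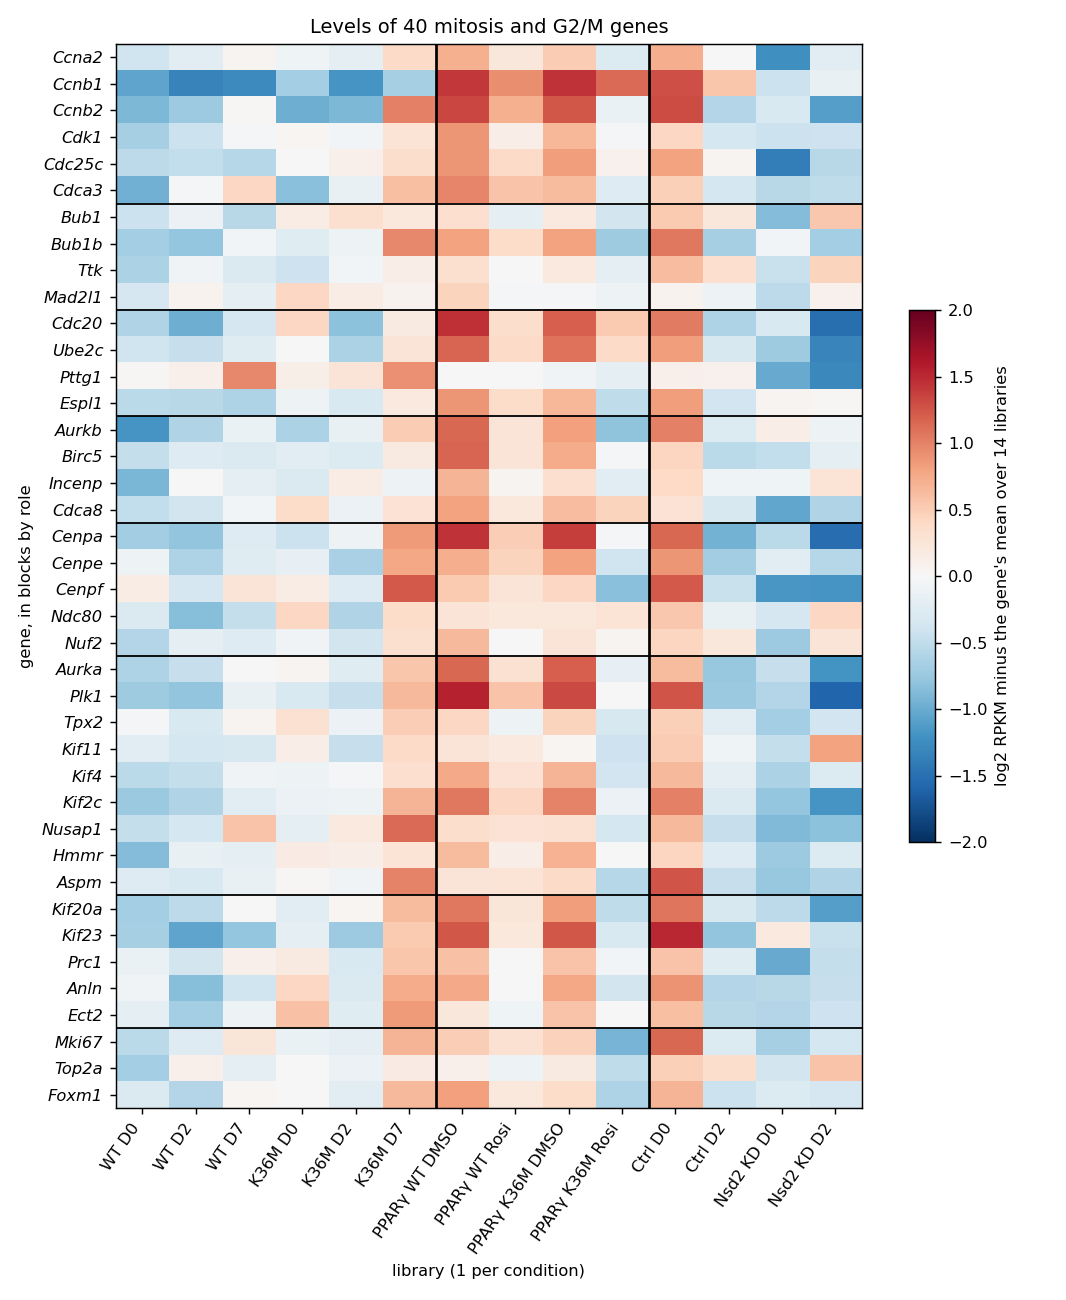
Log2 RPKM of each member, minus its mean over the 14 libraries, with members as rows in their role groups and libraries as columns. PPARγ WT cells with DMSO and Ctrl D0 hold the highest value of 30 of the 40 members between them.

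The first role group is the engine that drives entry into mitosis, made of the kinase Cdk1, its cyclins Ccna2, Ccnb1 and Ccnb2, the phosphatase Cdc25c that activates it, and Cdca3, which helps destroy its inhibitor Wee1. Cdk1 (chromosome 10 from 68799383 to 68815686, build mm9) had an RPKM of 17.2, 20.3 and 26.9 at D0, D2 and D7 in WT cells, against 27.9, 26.1 and 33.0 in K36M cells. It was 50.3 (WT) and 43.3 (K36M) in PPARγ cells given DMSO and 29.9 and 26.8 in those given Rosi, and 36.2 (Ctrl) and 20.3 (Nsd2 KD) before induction at D0 and 21.4 and 20.4 at D2. The highest Cdk1 value was thus in PPARγ WT cells with DMSO and the lowest at WT D0. For Ccnb1 (chromosome 13 from 101548605 to 101556525), the cyclin of mitotic entry, the RPKM was 10.4, 8.54 and 8.91 at D0, D2 and D7 in WT cells, against 13.6, 9.51 and 13.7 in K36M cells. It was 57.3 (WT) and 58.8 (K36M) in PPARγ cells given DMSO and 41.0 and 47.6 in those given Rosi, and 52.8 (Ctrl) and 16.0 (Nsd2 KD) before induction at D0 and 31.9 and 19.6 at D2. All 6 libraries of the first experiment lay below all 8 others for this gene. Its annotation includes a pseudogene copy, Ccnb1-ps, as do those of Ccnb2 and Kif4, and how reads shared with a copy were counted is not given in the sources used here.

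The spindle checkpoint, which delays anaphase until every chromosome is attached, was represented by the kinases Bub1 and Ttk, the kinase-like inhibitor Bub1b and the Cdc20-binding protein Mad2l1. Bub1b (chromosome 2 from 118423947 to 118467328) had an RPKM of 7.93, 7.43 and 12.2 at D0, D2 and D7 in WT cells, against 10.8, 11.9 and 24.7 in K36M cells. It was 22.2 (WT) and 22.1 (K36M) in PPARγ cells given DMSO and 16.3 and 7.77 in those given Rosi, and 26.4 (Ctrl) and 12.2 (Nsd2 KD) before induction at D0 and 8.07 and 7.95 at D2. Bub1b was therefore high in K36M D7, both DMSO libraries and Ctrl D0, and lay between 7.43 and 16.3 in the others. Mad2l1 varied least of all members, from 12.8 in Nsd2 KD D0 to 25.1 in PPARγ WT cells with DMSO.

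Anaphase is started by the APC/C with its activator Cdc20 and its ubiquitin-conjugating enzyme Ube2c, which mark securin (Pttg1) for destruction and so release separase (Espl1) to cut cohesin. Cdc20 (chromosome 4 from 118105506 to 118109957) had an RPKM of 16.8, 13.0 and 20.4 at D0, D2 and D7 in WT cells, against 34.2, 14.4 and 29.1 in K36M cells. It was 70.2 (WT) and 58.4 (K36M) in PPARγ cells given DMSO and 32.9 and 37.0 in those given Rosi, and 52.7 (Ctrl) and 20.7 (Nsd2 KD) before induction at D0 and 16.7 and 9.01 at D2. Ube2c (chromosome 2 from 164595398 to 164604322) was 24.1, 23.2 and 26.9 at D0, D2 and D7 in WT cells, against 31.7, 20.5 and 38.1 in K36M cells. It was 71.3 (WT) and 68.1 (K36M) in PPARγ cells given DMSO and 41.4 and 41.7 in those given Rosi, and 57.1 (Ctrl) and 19.4 (Nsd2 KD) before induction at D0 and 25.6 and 12.8 at D2. Both genes were highest in PPARγ WT cells with DMSO and lowest in Nsd2 KD D2. Pttg1 differed from them, with its highest RPKM of 25.3 in WT D7 and 24.5 in K36M D7. The stable subunits of the APC/C, which are present through much of the cycle, were more even: across the 15 comparisons of the design, Anapc10 was the one of 13 core subunits and activators that passed 2-fold, and it did so lower in Nsd2 KD than in Ctrl cells at D0 and D2.

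The chromosomal passenger complex corrects faulty attachments and guides cytokinesis, and consists of the kinase Aurkb with Incenp, Birc5 (survivin) and Cdca8 (borealin). Aurkb (chromosome 11 from 68859149 to 68865166) had an RPKM of 5.59, 8.32 and 11.5 at D0, D2 and D7 in WT cells, against 8.18, 11.5 and 18.1 in K36M cells. It was 28.2 (WT) and 22.4 (K36M) in PPARγ cells given DMSO and 15.2 and 7.26 in those given Rosi, and 25.6 (Ctrl) and 13.8 (Nsd2 KD) before induction at D0 and 10.5 and 11.8 at D2. Birc5 (chromosome 11 from 117710565 to 117717069) was 21.8, 25.3 and 24.8 at D0, D2 and D7 in WT cells, against 26.2, 25.1 and 34.3 in K36M cells. It was 68.2 (WT) and 50.9 (K36M) in PPARγ cells given DMSO and 36.1 and 29.5 in those given Rosi, and 40.9 (Ctrl) and 21.6 (Nsd2 KD) before induction at D0 and 21.0 and 26.4 at D2. Aurkb was lowest at WT D0, where Incenp also had its lowest value, whereas Birc5 stayed between 21.0 and 40.9 outside the 2 DMSO libraries.

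Centromeres and kinetochores join chromosomes to the spindle, and the members with this role were the centromeric histone Cenpa, the kinesin Cenpe, the large kinetochore protein Cenpf, and Ndc80 and Nuf2 of the microtubule-binding NDC80 complex. Cenpf (chromosome 1 from 191464478 to 191511965) had an RPKM of 6.99, 5.003 and 7.56 at D0, D2 and D7 in WT cells, against 6.99, 5.28 and 14.7 in K36M cells. It was 9.03 (WT) and 8.38 (K36M) in PPARγ cells given DMSO and 7.54 and 3.52 in those given Rosi, and 14.8 (Ctrl) and 2.83 (Nsd2 KD) before induction at D0 and 4.65 and 2.79 at D2. Ndc80 (chromosome 17 from 71845440 to 71876197) was 8.28, 5.64 and 7.30 at D0, D2 and D7 in WT cells, against 13.5, 6.71 and 13.1 in K36M cells. It was 12.1 (WT) and 11.7 (K36M) in PPARγ cells given DMSO and 11.7 and 12.3 in those given Rosi, and 14.7 (Ctrl) and 8.03 (Nsd2 KD) before induction at D0 and 9.13 and 13.6 at D2. Cenpf was lower at both days in Nsd2 KD cells than in any other library, whereas Ndc80 in Nsd2 KD D2 lay near its highest values. Cenpa ranged from 6.39 in Nsd2 KD D2 to 50.2 in PPARγ WT cells with DMSO, a 7.85-fold range that only Plk1 exceeded among the members.

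The 9 spindle assembly members were the kinases Aurka and Plk1, the Aurka activator Tpx2, the motors Kif11, Kif4 and Kif2c, and the spindle proteins Nusap1, Hmmr and Aspm. Plk1 (chromosome 7 from 129302951 to 129313389), which acts from mitotic entry to cytokinesis, had an RPKM of 8.21, 7.79 and 12.1 at D0, D2 and D7 in WT cells, against 10.9, 9.82 and 21.1 in K36M cells. It was 39.2 (WT) and 33.4 (K36M) in PPARγ cells given DMSO and 19.9 and 13.3 in those given Rosi, and 32.2 (Ctrl) and 8.93 (Nsd2 KD) before induction at D0 and 8.02 and 4.50 at D2. Kif11 (chromosome 19 from 37450893 to 37496349), the motor that pushes the spindle poles apart, was 14.8, 13.4 and 13.9 at D0, D2 and D7 in WT cells, against 18.9, 12.6 and 22.6 in K36M cells. It was 20.5 (WT) and 17.7 (K36M) in PPARγ cells given DMSO and 19.8 and 13.0 in those given Rosi, and 24.5 (Ctrl) and 12.3 (Nsd2 KD) before induction at D0 and 16.3 and 30.2 at D2. Nsd2 KD D2 thus held the lowest Plk1 value and the highest Kif11 value of the 14 libraries.

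Cytokinesis was represented by the central spindle motors Kif20a and Kif23, the microtubule bundler Prc1, the actin-ring scaffold Anln and the exchange factor Ect2, which helps to form the ring. Kif23 (chromosome 9 from 61765087 to 61794606) had an RPKM of 4.87, 3.71 and 4.52 at D0, D2 and D7 in WT cells, against 6.82, 4.64 and 11.1 in K36M cells. It was 18.3 (WT) and 18.3 (K36M) in PPARγ cells given DMSO and 8.93 and 6.25 in those given Rosi, and 21.8 (Ctrl) and 8.80 (Nsd2 KD) before induction at D0 and 4.48 and 5.67 at D2. Prc1 (chromosome 7 from 87439336 to 87461145) was 17.9, 15.1 and 20.9 at D0, D2 and D7 in WT cells, against 22.3, 15.9 and 28.7 in K36M cells. It was 29.3 (WT) and 28.9 (K36M) in PPARγ cells given DMSO and 19.7 and 18.8 in those given Rosi, and 29.0 (Ctrl) and 9.76 (Nsd2 KD) before induction at D0 and 16.5 and 14.1 at D2. The range of Kif23 over the 14 libraries was 5.88-fold and that of Prc1 was 3.00-fold.

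The remaining members were the proliferation marker Mki67, which coats mitotic chromosomes, the decatenating enzyme Top2a and the transcription factor Foxm1. Mki67 (chromosome 7 from 142881471 to 142908062) had an RPKM of 15.1, 18.3 and 26.1 at D0, D2 and D7 in WT cells, against 20.1, 19.2 and 35.2 in K36M cells. It was 31.0 (WT) and 30.2 (K36M) in PPARγ cells given DMSO and 27.2 and 11.5 in those given Rosi, and 48.7 (Ctrl) and 13.9 (Nsd2 KD) before induction at D0 and 18.1 and 17.2 at D2. Ctrl D0 was its highest library and PPARγ K36M cells with Rosi its lowest. Top2a (chromosome 11 from 98854257 to 98885503) was 32.3, 55.4 and 45.5 at D0, D2 and D7 in WT cells, against 51.3, 47.6 and 58.0 in K36M cells. It was 55.6 (WT) and 58.2 (K36M) in PPARγ cells given DMSO and 48.3 and 36.2 in those given Rosi, and 72.1 (Ctrl) and 40.2 (Nsd2 KD) before induction at D0 and 66.1 and 76.4 at D2. Top2a had the highest RPKM of the members in 11 of the 14 libraries, Ube2c in the 2 DMSO libraries, and Ccnb1 in PPARγ K36M cells with Rosi. Foxm1 (chromosome 6 from 128312985 to 128325911) was 15.0, 12.2 and 19.0 at D0, D2 and D7 in WT cells, against 18.5, 15.9 and 29.1 in K36M cells. It was 32.5 (WT) and 23.8 (K36M) in PPARγ cells given DMSO and 21.3 and 12.0 in those given Rosi, and 29.7 (Ctrl) and 15.2 (Nsd2 KD) before induction at D0 and 13.6 and 14.6 at D2.

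In WT cells, adipogenesis left the mitotic genes within 2-fold from D0 to D2 and from D2 to D7. From D0 to D2 none of the 40 members was more than 2-fold lower or higher, against 25.2% of all 17591 genes lower and 13.6% higher, and the median member log2 ratio was 0.07, beside -0.08 over all genes. Of all 17591 genes, 12155 had an RPKM of at least 1 in either library. Between quartiles the members ran from -0.25 to 0.25, and genes with an RPKM of at least 1 from -0.62 to 0.43. The lowest member was Anln at -0.77 (-0.88 to -0.67) and the highest was Incenp at 0.92 (0.81 to 1.04). Counting intervals lay below 0 for 12 members and above 0 for 14, so the members moved in both directions. Roles differed in the median: it was -0.48 for the 5 kinetochore members and -0.39 for the 5 cytokinesis members, and 0.39 for the passenger complex and 0.35 for the checkpoint. Top2a, which is already made in S phase, was 1.72-fold higher at D2 (log2 0.72 to 0.84). Among 20 DNA replication genes, which serve S phase, the median log2 ratio was 0.58, with Cdc45 and Rrm2 past 2-fold higher.

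From D2 to D7 in WT cells, again 0 of the 40 members passed 2-fold, against 12.2% of all genes lower and 22.4% higher. The median member log2 ratio was 0.38, beside 0.08 over all genes, and 30 members were higher at D7. Between quartiles the members ran from 0.03 to 0.52, and genes with an RPKM of at least 1 from -0.34 to 0.57. Nusap1, which bundles spindle microtubules, was highest at 0.92 (0.73 to 1.11) and Bub1 lowest at -0.44 (-0.64 to -0.24). Between D7 and D0 directly, a comparison added after the data were seen, Cdca3, Aurkb and Nusap1 were more than 2-fold higher, at log2 ratios of 1.38, 1.04 and 1.05, against 15.6% of all genes, and none was more than 2-fold lower, against 17.4%, with Anln lowest at -0.33. Of the 9 brown adipocyte markers, 7 were higher at D7 than at D0 in these WT libraries and Ucp1 and Cidea stayed under 1, with a Fabp4 RPKM of 37.6, 3249 and 2644 and an Adipoq RPKM of 1.56, 6.16 and 287 at D0, D2 and D7.

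In K36M cells the members went both ways from D0 to D2, with 26 lower and 14 higher, and 37 of them were higher at D7 than at D2. From D0 to D2, 2 of the 40 members were more than 2-fold lower, against 19.6% of all genes, and none was more than 2-fold higher, against 16.5%. These were Cdc20 at a log2 ratio of -1.24 (-1.42 to -1.07) and Ndc80 at -1.01 (-1.25 to -0.77), while Cdca3 was highest at 0.69. From D2 to D7, 10 members (25%) were more than 2-fold higher, near the 21.5% of all genes, and none was lower, against 14.9%. For 4 of the 10 the counting interval also excluded 2-fold. They were Ccnb2, Bub1b, Cdc20, Cenpe, Cenpf, Plk1, Aspm, Kif23, Anln and Ect2, led by Ccnb2 at 1.91 (1.67 to 2.15). The median member log2 ratio was 0.77, beside 0.07 for all genes that reached 1 RPKM in either library, and of those 15.7% were more than 2-fold higher. Incenp was the lowest at -0.24 (-0.36 to -0.12). Between D7 and D0 of K36M cells (added after the data were seen), 7 members were more than 2-fold higher, against 18.6% of all genes, namely Ccnb2 at 2.00, Cdca3, Bub1b, Aurkb, Cenpa, Cenpf and Nusap1, and Mad2l1 was lowest at -0.35. The response of K36M cells minus that of WT cells had a median of -0.20 from D0 to D2, with the counting interval below 0 for 17 members and above 0 for 1, and of 0.37 from D2 to D7, with the interval above 0 for 29 and below 0 for none. Top2a differed most in the first, at -0.89 (-0.97 to -0.80), and Ccnb2 in the second, at 1.15 (0.83 to 1.47). Differences between responses share libraries with the K36M to WT ratios of each day and are not separate observations from them.

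Set against WT cells of the same day, K36M cells had a higher RPKM of most members at each of the 3 days. At D0, 37 of the 40 were higher, 2 of them past 2-fold against 14.8% of all genes: Hmmr at a log2 ratio of 1.03 (0.89 to 1.17) and Cdc20 at 1.02 (0.88 to 1.16). None was more than 2-fold lower, against 12.0%, and Ccnb2 was lowest at -0.08. The median member log2 ratio was 0.44, with a middle range of 0.30 to 0.63 between quartiles, whereas genes with an RPKM of at least 1 had a median of 0.09. Of the 20 DNA replication genes, 7 exceeded their WT level by over 2-fold at D0, among them Cdc6, Rrm2 and Ccne2. At D2 none of the members passed 2-fold, against 9.9% of all genes lower and 22.2% higher, and 32 members were higher, with the counting interval above 0 for 22. The median was 0.23, beside 0.14 over all genes and 0.07 for genes with an RPKM of at least 1, from Top2a at -0.22 to Cenpa at 0.70. At D7, 39 members were higher and 6 of them more than 2-fold, against 19.7% of all genes, with none more than 2-fold lower, against 13.2%. These 6 were Kif23 at 1.30 (1.06 to 1.54), Aspm at 1.15, Anln at 1.14, Cenpa at 1.12, Cenpe at 1.02 and Bub1b at 1.01. The median member log2 ratio at D7 was 0.59, beside 0.12 for genes with an RPKM of at least 1. Pttg1 was the lowest at -0.05, and its interval of -0.31 to 0.22 spans 0.

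The K36M and WT libraries of D7 also differed in fat cell genes, with an Adipoq RPKM of 21.0 in K36M against 287 in WT cells and a Fabp4 RPKM of 143 against 2644. The summed RPKM of the 5 preadipocyte markers was highest of all libraries in K36M D7, at 630.1. The part of the cells' state of differentiation in the member values was not tested. Among the 7 inhibitors of cyclin-dependent kinases, Cdkn2d was listed at 0 in both libraries and Cdkn2a had an RPKM of 303 in WT D7 and 319.7 in K36M D7. Cdkn1c, which holds cells in G1, was 2.82, 6.79 and 44.0 in WT cells, against 2.12, 1.17 and 2.41 in K36M cells, so the libraries of both kinds of cells were apart at D2 and D7. Cdkn2c had an RPKM of 64.7 in WT D7 and 31.0 in K36M D7.

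**Figure D3:**
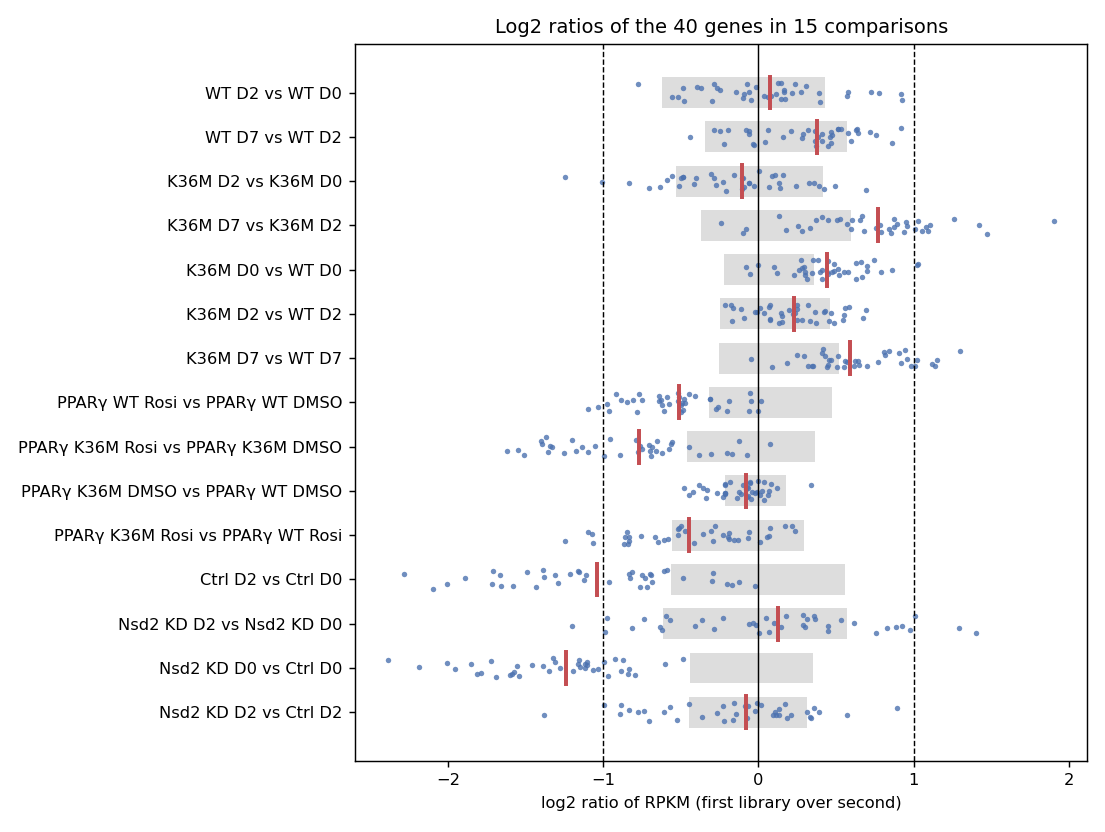
Log2 ratios of RPKM of the 40 members in each of the 15 comparisons of the design, 1 point per member, shifted vertically at random so that points can be told apart. A red bar marks the members' median, a grey box the range between the quartiles of all genes with an RPKM of at least 1, and dashed lines a 2-fold difference. The members of Nsd2 KD against Ctrl at D0 and of Ctrl D2 against D0 all lie below 0, with medians of -1.24 and -1.04.

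With Rosi, the ligand of PPARγ, the mitotic genes were lower in both kinds of sub-confluent PPARγ cells. In PPARγ WT cells 39 of the 40 members were lower with Rosi, and 2 of them more than 2-fold against 16.2% of all genes, namely Cdc20 at a log2 ratio of -1.10 (-1.20 to -0.99) and Kif23 at -1.03 (-1.18 to -0.89). No member was more than 2-fold higher, against 17.0%. The median member was 1.43-fold lower, at a log2 ratio of -0.51 beside 0.06 for genes with an RPKM of at least 1, and the counting interval lay below 0 for 35 members. Aspm was the one member that was not lower, at 0.02 (-0.10 to 0.14). By role, the medians ran from -0.20 for Mki67, Top2a and Foxm1 and -0.27 for the kinetochore members to -0.75 for the passenger complex and -0.77 for cytokinesis.

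In PPARγ K36M cells, 15 members were more than 2-fold lower with Rosi, against 15.0% of all genes and 8.85% of those with an RPKM of at least 1, and none was more than 2-fold higher, against 18.3%. Here 39 of 40 were again lower and the median member was 1.70-fold lower, at a log2 ratio of -0.77 beside -0.04 for genes with an RPKM of at least 1. Aurkb was lowest at -1.62 (-1.86 to -1.39), followed by Kif23 at -1.55 and Bub1b at -1.51. Also past 2-fold were the engine member Ccnb2, separase (Espl1), Cenpa, Cenpe and Cenpf of the kinetochore, the spindle members Aurka, Plk1, Kif4 and Kif2c, the cytokinesis members Kif20a and Anln, and Mki67. Ndc80 stayed level at 0.08 (-0.12 to 0.27). The wider list of 43 other mitotic genes had 12 more than 2-fold lower, among them Nek2, Melk and Gtse1, and 1 higher, the centromere gene Cenpq.

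PPARγ K36M cells differed little from PPARγ WT cells with DMSO and more with Rosi. With DMSO none of the 40 members passed 2-fold, against 8.31% of all genes lower and 23.9% higher, and the log2 ratios ran from -0.48 for Mad2l1 to 0.34 for Ect2 with a median of -0.08. Between quartiles the members ran from -0.22 to -0.01, and genes with an RPKM of at least 1 from -0.21 to 0.18. With Rosi 4 members were more than 2-fold lower in K36M cells, against 12.6% of all genes, and none higher, against 28.4%. They were Mki67 at -1.24 (-1.33 to -1.16), Cenpf at -1.10, Bub1b at -1.07 and Aurkb at -1.07, whereas Cdca8 was highest at 0.24. The median was -0.44, beside -0.11 for genes with an RPKM of at least 1. Between quartiles the members ran from -0.77 to -0.15, and genes with an RPKM of at least 1 from -0.55 to 0.30. More genes were above 0 in PPARγ K36M cells, 20121 with DMSO and 19981 with Rosi, against 18385 and 17671 in PPARγ WT cells. With Rosi, 11987 of the 20699 genes compared had an RPKM of at least 1, so the shares of all genes include many with few reads. The K36M to WT ratios and the responses to Rosi share libraries and are not separate observations.

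The response to Rosi in K36M cells minus that in WT cells had a median of -0.36 over the members, with the counting interval below 0 for 25 and above 0 for 5. It was largest for Mki67, at -1.20 (-1.30 to -1.11), whose RPKM was 30.2 with DMSO and 11.5 with Rosi in K36M cells and 31.0 and 27.2 in the WT libraries. Bub1b and Cenpf followed at -1.06 and -0.99. Nuf2 and Cdc20 went the other way, at 0.44 and 0.44. Of the CDK inhibitors only Cdkn1c is given here, with an RPKM of 7.58 (WT) and 7.31 (K36M) without Rosi and of 32.9 and 36.3 with it. Adipoq, by contrast, reached 132 with Rosi in WT cells and 5.64 in K36M cells.

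Within the 3 experiments, the member median was farthest from 0 with the Nsd2 shRNA before induction. At D0, 30 of the 40 members were more than 2-fold lower in Nsd2 KD than in Ctrl cells, against 18.1% of all 17216 genes and 10.8% of those with an RPKM of at least 1, and none was higher, against 13.5%. The median member was 2.36-fold lower, at a log2 ratio of -1.24 beside 0.00 over genes with an RPKM of at least 1, and the counting interval lay below 0 for all 40. Cenpf was lowest at -2.38 (-2.52 to -2.25), followed by Cdc25c at -2.18, Aspm at -2.01 and Ccna2 at -1.95. Incenp was the least lower at -0.48 (-0.58 to -0.39). Members of all 8 roles were among them: past 2-fold were 5 of 6 engine members, 3 of 4 checkpoint members, 3 of 4 of the APC/C group, 1 of 4 of the passenger complex (Cdca8), 4 of 5 kinetochore members, 8 of 9 spindle members, all 5 cytokinesis members, and Mki67. The 10 members within 2-fold were Cdk1, Mad2l1, Espl1, Aurkb, Birc5, Incenp, Ndc80, Kif11, Top2a and Foxm1. The engine had the lowest role median, at -1.66, and the passenger complex the highest, at -0.90. Ctrl D0, the reference here, had the highest member sum of the 14 libraries, at 4008 RPM. The paper reports that Nsd2 KD slightly slowed the growth of these preadipocytes, which could still grow past confluence.

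Genes of neighbouring functions in the same comparison were mostly less far apart. Of the 43 other mitotic genes, 17 were more than 2-fold lower in Nsd2 KD D0 and none higher, with a median of -0.88. The 20 DNA replication genes had a median of 0.14 with none past 2-fold, the 13 APC/C core genes a median of -0.18, and the 5 cohesin genes 0.07. All 8 condensin genes were lower in Nsd2 KD D0 than in Ctrl D0. Past 2-fold were Ncapg, with an RPKM of 5.42 against 16.1, and Ncaph, with 11.3 against 24.5, whereas Ncaph2 had 34.9 against 36.8. Among the 22 regulators of cell cycle transcription, the MuvB subunit Lin9 and the repressor E2f6 were more than 2-fold lower and Rb1, the retinoblastoma gene, more than 2-fold higher. The CDK inhibitor Cdkn1a, a p53 target, had an RPKM of 258 in Nsd2 KD D0 and 127 in Ctrl D0, and the other inhibitors are not given here.

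From D0 to D2 the members were lower in Ctrl cells and went both ways in Nsd2 KD cells, with 16 lower and 24 higher. In Ctrl cells 20 of the 40 members were more than 2-fold lower at D2, against 23.4% of all genes and 16.1% of those with an RPKM of at least 1, and none was higher, against 17.3%. All 40 had a ratio below 0, with a median 2.05-fold lower, from Kif23 at a log2 ratio of -2.29 (-2.47 to -2.11), Cenpa at -2.09 and Plk1 at -2.01 to Pttg1 at -0.02. Those past 2-fold were Ccnb2, Bub1b, Cdc20, Ube2c, Espl1, Aurkb, Cenpa, Cenpe, Cenpf, Aurka, Plk1, Kif2c, Nusap1, Aspm, Kif20a, Kif23, Anln, Ect2, Mki67 and Foxm1. Top2a was -0.12 (-0.17 to -0.08), and the 20 DNA replication genes had a median of 0.46, with Cdt1 more than 2-fold higher and none more than 2-fold lower. In Nsd2 KD cells 1 member was more than 2-fold lower at D2, Cdc20 at -1.20, against 24.5% of all genes. There 3 were more than 2-fold higher, against 16.9%, namely Bub1 at 1.40, Kif11 at 1.29 and Ccna2 at 1.01. The median member log2 ratio in Nsd2 KD cells was 0.12.

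The response of Nsd2 KD cells minus that of Ctrl cells had a median of 1.13, with the counting interval above 0 for 39 of the 40 members and below 0 for none. It was largest for Kif11, at 1.88 (1.74 to 2.02), and 24 members had ratios of opposite sign in Nsd2 KD and Ctrl cells. Pttg1 was the exception, at -0.26 (-0.80 to 0.27). The differences between responses share libraries with the Nsd2 KD to Ctrl ratios, whose medians were -1.24 at D0 and -0.08 at D2. They are not separate observations from those ratios. Plk1, Cenpa, Cdc20 and Ccnb2 were among the lower members at D2 in both kinds of cells, at log2 ratios of -0.99, -0.98, -1.20 and -0.81 in Nsd2 KD cells. Other members past 2-fold lower in Ctrl cells did not follow, such as Aspm, Cenpf, Anln and Mki67. These had 0.15, -0.02, 0.10 and 0.31 in Nsd2 KD cells. Agreement in rank over the 40 members is not given here. Of the 7 CDK inhibitors listed, Cdkn1a had an RPKM of 258 and 96.6 at D0 and D2 in Nsd2 KD cells and 127 and 119 in Ctrl cells. The other inhibitors are not given for these libraries, and the part of Cdkn1a in the member values was not tested. Mybl2, which encodes B-MYB, was 3.55 and 15.3 in Nsd2 KD cells and 7.07 and 6.63 in Ctrl cells.

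**Figure D4:**
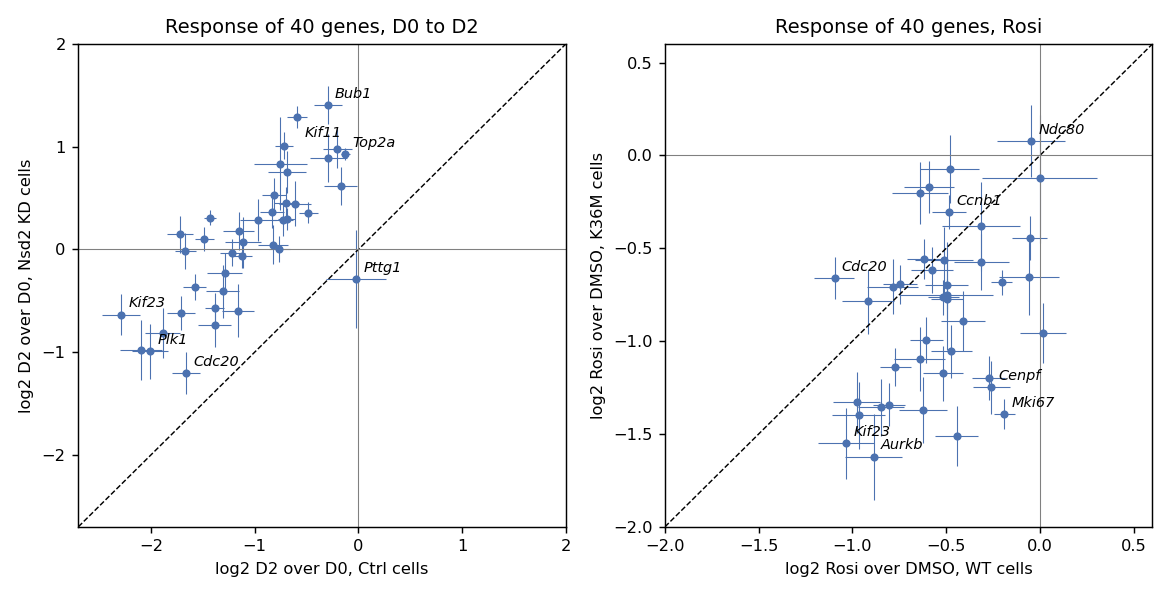
Log2 ratio of RPKM of each of the 40 members, as 1 point with its 95% counting intervals, from D0 to D2 in Nsd2 KD against Ctrl cells (left) and with Rosi over DMSO in PPARγ K36M against PPARγ WT cells (right), with a dashed line of equal response. In the left panel 39 of the 40 members lie above the line beyond counting error, and in the right panel 25 lie below it and 5 above.

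By D2 the Nsd2 KD and Ctrl libraries differed in both directions, with the counting interval below 0 for 18 members and above 0 for 10. The APC/C group had the lowest role median, at -0.94, and the passenger complex the highest, at 0.25. Only Pttg1 passed 2-fold, lower at -1.38 (-1.80 to -0.98), against 18.5% of all genes lower and 12.0% higher, and the median member log2 ratio was -0.08. Kif11 was highest at 0.89 (0.80 to 0.98). Ube2c and Cdc20, which act with the APC/C, had their lowest values of all libraries in Nsd2 KD D2, as did Pttg1.

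The control libraries of the 3 experiments did not match, and Ctrl D0 stood high among them. In comparisons added after the data were seen, Ctrl D0 was more than 2-fold above WT D0 for 27 members, against 12.0% of all genes, and lower for none, against 23.0%. The median member log2 ratio was 1.22, beside -0.24 for genes with an RPKM of at least 1, with Ccnb1 highest at 2.34 and Pttg1 lowest at 0.09. At D2 the same 2 kinds of control cells had 1 member past 2-fold, Ccnb1 at 1.90, against 12.2% higher, with none lower, against 15.6%, and a median of 0.14, and Cdca3 was lowest at -0.31. Nsd2 KD D0 against WT D0 had 2 members more than 2-fold lower, Cenpf at -1.31 and Pttg1 at -1.03, against 28.8% of all genes, and 1 higher, Aurkb at 1.31, against 13.8%, with a median of -0.04 that became 0.18 when libraries were rescaled by the median ratio. PPARγ WT cells with DMSO were more than 2-fold above WT D0 for 25 members, against 19.8% of all genes, and lower for none, against 26.1%, with a median of 1.30, from Pttg1 at -0.02 to Ccnb1 at 2.46.

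These last comparisons cross experiments and so carry whatever else differed between them. Ppia, which is commonly used as a reference gene, had an RPKM of 0.75 to 2.24 in the 6 libraries of the first experiment and of 290.2 to 550.4 in the 8 others. Its part in the member values was not tested. Rescaling the libraries by their median ratio to WT D0 shifted the libraries of the other 2 experiments by -0.10 to -0.30 on the log2 scale, which would add that much to the cross-experiment ratios. Within an experiment the same rescaling moved no comparison by more than 0.13. Exons of 9 members overlap another annotated gene, for example Ccna2 with Exosc9, Cdc20 with Elovl1 and Kif20a with Cdc23, and the strand of the counting is not given in the sources used here.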

How the data were processed

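RNA-Seq was analysed in 14 libraries of mouse brown preadipocytes, with 1 library per condition, grouped by the sample labels. The 20 ChIP-Seq samples were not analysed here. RNA was purified as polyadenylated mRNA. RPKM (reads scaled to transcript length and mapped reads) is the unit the authors deposited, for 29082 RefSeq transcripts. The submitters' processing notes name CASAVA 1.8.2, SICER and mm9, and the mapper and counter of the RNA-Seq reads and their use of strand are not given in the sources used here.

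Symbols came from RefSeq annotation for 28436 transcripts (97.8%), and each gene took the transcript with the highest mean RPKM, giving 23109 genes. Transcript lengths of GENCODE M1 were used in recovering the reads. Ratios used the RPKM as deposited, without a pseudocount, for genes above 0 in either library compared, and a call needed a ratio past 2-fold, the threshold of the study's legends. Whole reads, to within 0.01 read, were recovered from the RPKM of 26945 of 26946 transcripts above 0 in at least 2 libraries, and gave mapped reads per library and 95% Clopper-Pearson intervals. Intervals of differences between responses used a normal approximation to those reads. PCR copies are not independent molecules, so intervals cover counting error only. No test across conditions was run, since each condition has 1 library. Recovery, calls and intervals were tested on simulated data, where 99.96% of 26345 transcripts were recovered exactly. For D0 and D2 of WT cells and transcripts with an expected 100 reads or more, 200 of 200 changed 4-fold were called. Of 14055 unchanged ones 0 were called. The simulated reads held counting error only, with the same mean share of reads per transcript in every library outside the 4-fold changes. Variation between cultures or library preparations was not simulated, so these counts are not error rates of the real comparisons. Intervals held the true ratio for 95.4% of 16372 unchanged transcripts above a lower minimum of expected reads. Coverage below that minimum was not checked.

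The members and the other gene lists were chosen with earlier results of these data known. All members are named, 16 fixed by role are given in every library, and each comparison names its lowest and highest member. Other genes come from lists of APC/C, cohesin, condensin, other mitotic, mitotic entry, transcription, DNA replication, CDK inhibitor, housekeeping and marker genes. The alternatives were 2 filters on low values, pseudocounts of 0.1 and 1, rescaling by the median ratio, summed transcripts, a call on the counting interval and a 1.5-fold threshold. Promoter windows were from RefSeq (GRCm38.p6). Python 3.11.15, pandas 2.3.3, NumPy 2.4.6, SciPy 1.17.1 and matplotlib 3.10.9 were used.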

Additional observations from a re-analysis of the deposited data

Results flagged for a closer look

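From D0 to D2 the median log2 ratio of the members had opposite signs in control and perturbed cells. In WT cells the median log2 ratio was 0.073 and in K36M cells it was -0.11, with 12 members of opposite sign and members on both sides of 0 in each. Both medians were within 0.17 of 0, the median half-width of the members' counting intervals in each comparison. Over all genes the median was -0.08 in both. In Ctrl cells the median was -1.04 and in Nsd2 KD cells it was 0.12, with 24 members of opposite sign. With 1 library per condition neither difference was tested.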

How the results depend on the processing

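Pairing by replicate number was not possible because each condition has 1 library, and for the same reason no replicate could be left out. The WT and K36M libraries can be paired by day. A model of histone plus day over them, with the change of the histone effect between days as its error, was not run. The median log2 ratio of the members kept its sign in all 15 comparisons under every alternative that was run. Of the 6 comparisons added after the data were seen, Nsd2 KD D0 against WT D0 changed sign, from -0.04 to 0.18, with rescaling by the median ratio. Counts of members past 2-fold moved as follows, listed only where a count changed by more than 1.5-fold or became or left 0. Smaller changes are not listed, so a count that is absent here need not be unchanged. A 1.5-fold threshold gave, lower and higher, 1 and 4 for WT D2 against D0, 8 higher for WT D7 against D2, 6 and 1 for K36M D2 against D0, 26 higher for K36M D7 against D2, and 11, 3 and 20 higher for K36M against WT at D0, D2 and D7. It gave 17 lower with Rosi in PPARγ WT cells, 29 in PPARγ K36M cells, 14 for K36M against WT with Rosi, 33 for Ctrl D2 against D0, 8 lower and 9 higher for Nsd2 KD D2 against D0, and 9 lower and 1 higher for Nsd2 KD against Ctrl at D2. Where the counting interval also had to exclude 2-fold, 1 was left for K36M D2 against D0, 4 for K36M D7 against D2, 0 for K36M against WT at D0, 3 at D7 and 1 with Rosi, and 0 for Rosi in PPARγ WT cells, for the lower members of Nsd2 KD D2 against D0 and for Nsd2 KD against Ctrl at D2. A pseudocount of 1 gave 1, 6, 0, 3, 1 and 1 for K36M D2 against D0, K36M D7 against D2, K36M against WT at D0 and D7, Rosi in PPARγ WT cells, and K36M against WT with Rosi, and a pseudocount of 0.1 gave 1 for K36M D2 against D0. Rescaling by the median ratio gave 1 for K36M D2 against D0, 0 and 3 for K36M against WT at D0 and D7, 2 for K36M against WT with Rosi and 3 lower for Nsd2 KD D2 against D0. The members with few reads limit the intervals most.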
